A study of Mus musculus with 2 samples.

Results

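The cells described here are 293 cells of 1 mouse small cell lung tumor (tumor 2, TKO2) that were selected on their unique molecular identifier (UMI) counts. A barcode was taken if it had more than 500 detected genes, fewer than 10 UMIs of Scgb1a1 (a club cell secretory protein), fewer than 5 UMIs summed over 6 macrophage genes (Lyz2, C1qa, C1qb, C1qc, Tyrobp and Fcer1g) and fewer than 3 UMIs of Calca, at least 2 UMIs summed over Crabp2, Car14 and Cdkn1c, and 0 UMIs of Krt7, Krt8, Krt18 and Elf3. They are called the selected cells, and the UMIs summed over Crabp2, Car14 and Cdkn1c are called rule UMIs. They made up 8.21% (exact Clopper-Pearson 95% interval 7.33 to 9.16) of the 3568 cells of tumor 2 with more than 500 genes, out of 8330 barcodes in both libraries. Measured values of these same cells chose them, so every difference given below is a description, with no test. Each tumor is 1 library, cells of a library are not replicates, and all intervals cover counting error only.

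Both tumors came from lungs of Rb-/-; Trp53-/-; Rbl2-/- mice (TKO) of mixed background, with C57BL/6, 129/SVJ and 129/SvOla given as its sources, that also carried a Rosa26 membrane-Tomato or membrane-GFP reporter. Tumors were induced with Adeno-CMV-cre, whose promoter is not restricted to 1 cell type, and were taken 7 months later, at an age of 8 to 9 months. From each mouse 1 tumor was dissociated, sorted for live cells and captured on the 10x Chromium platform. All cells compared below are from tumors with the same genotype and treatment, so the comparisons are between cells of 1 tumor, apart from the values of tumor 1 at the end.

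The library of tumor 2 held 8291430 UMIs over 3816 barcodes, and that of tumor 1 5285038 UMIs over 4514. The selected cells held 927132 UMIs, with a median of 2697 UMIs and 1246 genes per cell. Of the barcode sequences, 22 occurred in both libraries, among them those of 2 selected cells, 1 of which also passed 500 genes in tumor 1. Doublets were not removed.

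Crabp2 encodes a protein that carries retinoic acid to its nuclear receptors. Car14 encodes a carbonic anhydrase bound to the cell membrane, an enzyme that interconverts carbon dioxide and bicarbonate. Cdkn1c encodes p57, an inhibitor of the cyclin-dependent kinases that drive the cell cycle, and is imprinted, with expression mainly from the maternal copy. Small cell lung cancer is a neuroendocrine tumor whose cells can carry epithelial keratins or neuronal genes to differing degrees. Krt7, Krt8 and Krt18 are keratins of simple epithelia, and Elf3 is an epithelial transcription factor. In GENCODE M21 (GRCm38), Crabp2 (ENSMUSG00000004885) lies on chromosome 3 from 87948666 to 87953376, Car14 (ENSMUSG00000038526) on chromosome 3 from 95897768 to 95904691 and Cdkn1c (ENSMUSG00000037664) on chromosome 7 from 143458339 to 143461050.

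Cdkn1c brought most of the selected cells in. It was present in 249 of the 293 cells (85.0%, 80.4 to 88.9), with 652 UMIs and at most 17 in 1 cell. Crabp2 was present in 90 cells (30.7%, 25.5 to 36.3), with 173 UMIs and at most 6 in 1 cell, and Car14 in 87 cells (29.7%, 24.5 to 35.3), with 123 UMIs and at most 3. Cells that held Cdkn1c alone made up 47.1% (138 cells), those with Crabp2 and Cdkn1c 18.8% (55 cells) and those with Car14 and Cdkn1c 15.7% (46 cells). All 3 genes were found together in 10 cells (3.41%, 1.65 to 6.19). The deeper cells held more of the genes, from a median of 2246.5 UMIs in cells with Cdkn1c alone to 4975.5 in cells with all 3. In barcodes at or over the macrophage limit, Crabp2 and Car14 were at 0 UMIs in 88 barcodes, which allows up to 19.4 CPM (UMIs of a gene per 1000000 UMIs of the group) at 3 UMIs, and 2 of them had a Cdkn1c UMI.

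Many of the selected cells lay close to the threshold. Just inside it, 139 selected cells had exactly 2 rule UMIs, with a median depth of 2405 UMIs, while 74 had 3 and 80 had 4 or more. Just outside it, 284 cells without keratin or Elf3 UMIs had exactly 1 rule UMI, with a median depth of 2059 UMIs. Mdk, which encodes the secreted growth factor midkine, had 53.9 CPM (33.4 to 82.5) just inside and 104 CPM (80.3 to 132) just outside. Cd9, a tetraspanin of the cell surface, had 190.1 CPM (149 to 239) just inside and 253 CPM (216 to 296) just outside.

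Each of the 3 genes was found in a larger share of the cells without keratin or Elf3 UMIs than of those with them. After each cell was thinned to 1000 UMIs, 25.4% (23.2 to 27.6) of 1609 cells within the limits that then had no keratin or Elf3 UMI held at least 1 rule UMI, against 9.66% (8.18 to 11.3) of 1439 cells with one. For Crabp2 the shares were 4.16% (3.24 to 5.26) and 0.973% (0.533 to 1.63). For Car14 they were 4.60% (3.63 to 5.74) and 0.903% (0.482 to 1.54). For Cdkn1c they were 18.6% (16.8 to 20.6) and 8.34% (6.96 to 9.89). The intervals lay apart for each of the 3 genes. At full depth, 400 of the cells with Cdkn1c, holding 639 of its UMIs, had keratin or Elf3 UMIs and 434 cells, holding 837, had none. The rule used both the 3 genes and the keratins, so these shares are a description and support nothing. Median depths before thinning were 2203 and 2026 UMIs.

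Read the other way, with no condition on the keratins, the keratin genes were lower the more rule UMIs a cell held. Krt8 had 374 CPM (357 to 391) in the 2385 cells with 0 rule UMIs, 175 CPM with 1, 125 CPM with 2, 75.9 CPM with 3 and 28.3 CPM (15.5 to 47.4) in the 117 cells with 4 or more. Krt7 went from 629 CPM (607 to 652) to 137 CPM (107 to 174) and Krt18 from 231 to 34.3 CPM over the same classes. Elf3 went from 62.1 to 8.08 CPM, with 28.0 CPM at 1 rule UMI and 33.8 CPM at 2. Cd9, which the rule did not use, went from 1639 CPM (1603 to 1675) to 224 CPM (184 to 270). Epcam, an epithelial adhesion molecule, went from 520 CPM (499.5 to 540.3) to 98.9 CPM (73.2 to 131). The share of cells with no keratin or Elf3 UMI was 34.5% at 0 rule UMIs, 49.7% at 1, 60.4% at 2 and 66.1% at 3, although median depth went up from 1786 to 2985.5 UMIs over these classes.

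**Figure D1:**
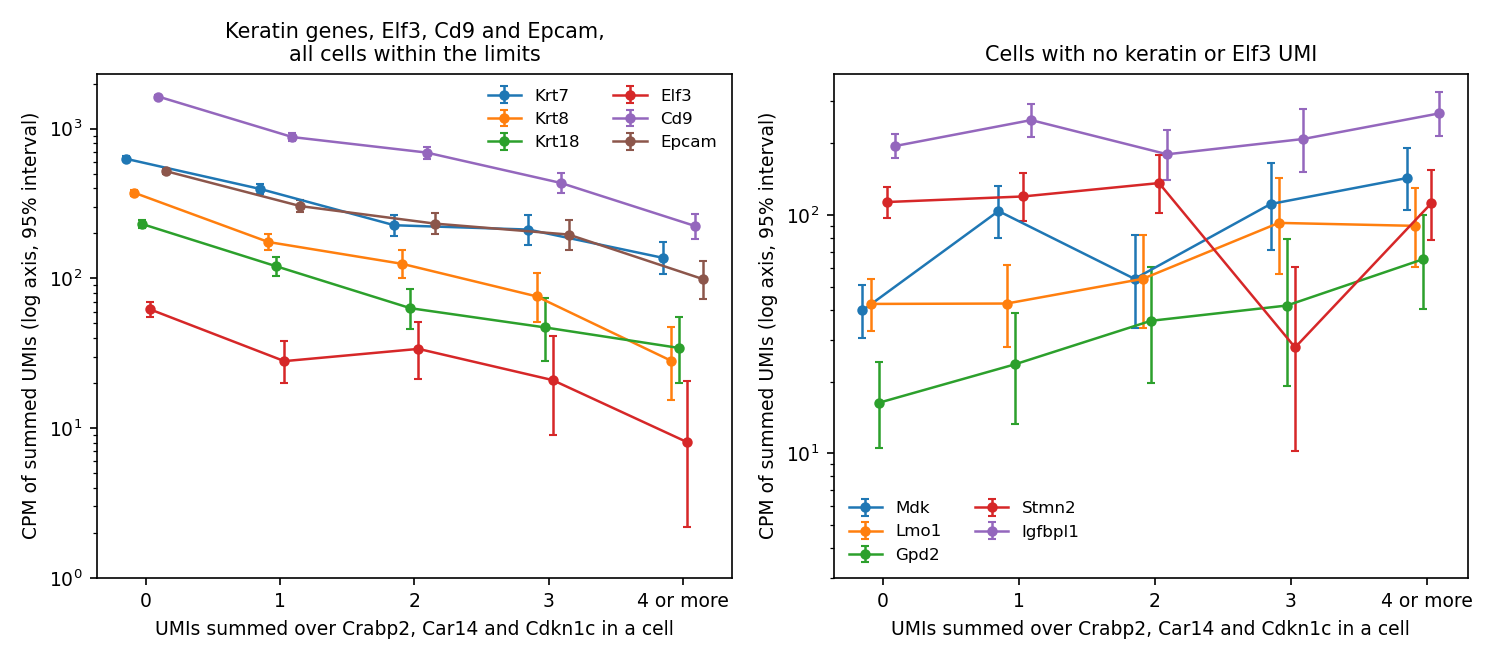
CPM of summed UMIs (log axis, with exact Poisson 95% intervals) by the number of UMIs of Crabp2, Car14 and Cdkn1c in a cell, for all tumor 2 cells within the limits (left) and for those without keratin or Elf3 UMIs (right). Krt8 goes from 374 to 28.3 CPM and Cd9 from 1639 to 224 CPM on the left, while on the right Gpd2 goes from 16.3 to 65.2 CPM and Stmn2 shows no steady order.

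Whether the 3 genes were found in the same cells was read within the cells that lacked keratins. In cells without keratin or Elf3 UMIs, thinned to 1000 UMIs, Cdkn1c was found in 23.0% (13.2 to 35.5) of 61 cells with Crabp2 and in 19.8% (17.5 to 22.2) of 1173 cells without it. Crabp2 was found in 4.41% (0.919 to 12.4) of 68 cells with Car14 and in 4.97% (3.80 to 6.38) of 1166 cells without it. Neither difference was detectable at this depth. Over all cells within the limits, keratins included, Cdkn1c was found in 27.2% (17.9 to 38.2) of 81 cells with Crabp2 and in 13.4% (12.2 to 14.7) of 2967 without. Cdkn1c was found there in 18.4% (10.9 to 28.1) of 87 cells with Car14 and in 13.6% (12.4 to 14.9) of 2961 without, and Car14 in 4.94% (1.36 to 12.2) of the cells with Crabp2 and in 2.80% (2.23 to 3.46) of those without, with intervals that overlapped for both pairs. Each gene was also read in cells chosen by the other 2 at full depth. Crabp2 had 116 CPM (93.1 to 143) in 246 cells chosen on Car14 and Cdkn1c and 46.0 CPM (36.3 to 57.5) in 877 cells with neither, a log2 ratio of 1.33 (0.88 to 1.79). Car14 had 72.3 CPM (54.9 to 93.5) and 57.2 CPM (46.5 to 69.7) when Crabp2 and Cdkn1c chose the cells, a log2 ratio of 0.34 (-0.16 to 0.82). Cdkn1c had 322 CPM (263 to 390.3) and 245 CPM (225 to 266), a log2 ratio of 0.40 (0.08 to 0.70). The intervals of Crabp2 and, at a smaller ratio, Cdkn1c lay above 0, and that of Car14 included 0. The chosen cells were deeper in each case, for Crabp2 with medians of 2639 and 1699 UMIs and for Cdkn1c 3310.5 and 1781. Having 0 keratin UMIs was therefore a stricter condition in the chosen cells. The rule used all 3 genes, so these ratios are a description and support nothing.

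The selected cells carried neuroendocrine markers. All 16 neuroendocrine markers that were read, such as Insm1, Chga and Uchl1, had UMIs in them, at a summed level of 1457 CPM with Uchl1, a ubiquitin hydrolase of neurons and neuroendocrine cells, on top at 499 CPM. The 88 barcodes over the macrophage limit had 201 CPM, of 9 of the 16, and the 14 barcodes over the club limit 2062 CPM, of 13 of the 16, so the sum does not set the selected cells apart from all other barcodes. All markers read were at 0 for basal cells (6 genes) and neutrophils (6). Other lists had a few members with UMIs. Of the alveolar type 2 list 3 of 10 genes did, led by Abca3 at 4.31 CPM, with Sftpc and Sftpb at 0. Of the ciliated list 2 of 10 did, led by Tppp3 at 14.0 CPM, with Foxj1 at 0, and of the fibroblast list only Mfap4 at 5.39 CPM, with Col1a1 and Dcn at 0. Among the club genes Aldh1a7 had 44.2 CPM, with Scgb3a2 and Cyp2f2 at 0. Dclk1 of the tuft list had 41.0 CPM, with Pou2f3 and Trpm5 at 0, and Mbp of the glial list 24.8 CPM, with Sox10 at 0. Of 10 endothelial markers 3 had UMIs, summing to 140.2 CPM, of which Egfl7 gave 107, with Pecam1 and Cdh5 at 0. The 14 macrophage genes, 6 of which the rule limited, had 60.4 CPM from 6 genes, led by Cd74 with 39.9 CPM, of whose 37 UMIs 33 came from 1 cell. The 11 lymphocyte genes had 2.16 CPM. Of the deleted genes, Rb1 had 11 UMIs (11.9 CPM), Trp53 42 (45.3 CPM) and Rbl2 2 (2.16 CPM). Exons cannot be told from these counts, so the deletions were not checked.

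Igfbpl1, of the family of insulin-like growth factor binding proteins, and Stmn2, a microtubule regulator of neurons, had been proposed as further markers of these cells. Igfbpl1 had 217 CPM (188 to 249) in the selected cells and 195 CPM (173 to 218) in the 822 cells of tumor 2 that passed the same limits and had 0 rule UMIs and 0 keratin and Elf3 UMIs, called the compared cells below. The log2 ratio was 0.15 (-0.11 to 0.42). Stmn2 had 102 CPM (82.9 to 125) and 113 CPM (97.1 to 132), a log2 ratio of -0.15 (-0.52 to 0.22). Neither gene was higher in the selected cells beyond counting error. Stmn2 came to -0.54 at 3 or more rule UMIs and to -0.97 with cells chosen without Cdkn1c, where Igfbpl1 came to -0.39. With the rule applied after thinning to 1500 UMIs, Stmn2 came to -0.80. That setting took 1 or more rule UMIs in place of 2, so it changed depth and threshold together. With compared cells of any keratin Stmn2 came to 0.96. Against the 1563 cells without rule UMIs that did hold keratin or Elf3 UMIs, called keratin cells, both were higher. Igfbpl1 had 153 CPM (139.9 to 167) in the keratin cells and Stmn2 24.4 CPM (19.4 to 30.4), for log2 ratios of 0.50 and 2.07 (1.63 to 2.51). Stmn2 UMIs were uneven, with 43 of the selected cells holding any and 10 cells holding 53.7% of them. At 1000 UMIs Stmn2 was found in 8.10% (5.20 to 11.9) of selected, 6.87% (5.09 to 9.03) of compared and 1.52% (0.944 to 2.32) of keratin cells, and in 1.22% of barcodes over the macrophage limit. At full depth these shares were 14.7%, 10.6%, 2.50% and 2.27%, at median depths of 2697, 1673.5, 1872 and 1601.5 UMIs. Igfbpl1 was found at 1000 UMIs in 20.4% (15.9 to 25.6) of selected, 15.5% (12.9 to 18.4) of compared and 13.0% (11.3 to 14.9) of keratin cells. Its intervals in selected and compared cells overlapped.

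Of 4584 genes with a mean of at least 25 CPM, 15 (0.327%) were at least 2-fold higher in the selected cells and 32 (0.698%) at least 2-fold lower, and the median log2 ratio of all was 0.02. The middle 95% of these genes lay between -0.68 and 0.64. The compared cells held 1534983 UMIs, with a median of 1673.5 UMIs per cell, so 0 keratin UMIs were counted at a lower depth in them than in the selected cells. When compared cells were weighted to the depth of the selected cells, 57 genes were higher and 80 lower. The weights used 10 depth bins, and the 2 deepest held 29 and 30 selected but 6 and 8 compared cells. All values at weighted depth therefore rest in part on few compared cells.

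Mdk was the higher gene with the most UMIs. It had 91 UMIs (98.2 CPM, 79.0 to 121) in the selected cells and 61 UMIs (39.7 CPM, 30.4 to 51.0) in the compared cells, a log2 ratio of 1.30 (0.82 to 1.80). The UMIs lay in 40 of the 293 and in 35 of the 822 cells, and 10 selected cells held 58.2% of the UMIs of the selected cells. These are shares of 13.7% and 4.26% at median depths of 2697 and 1673.5 UMIs. At 1000 UMIs Mdk was found in 6.34% (3.80 to 9.83) of selected and 3.36% (2.14 to 5.00) of compared cells, with intervals that overlapped. Gpd2, the mitochondrial glycerol-3-phosphate dehydrogenase, had 44 and 25 UMIs and a log2 ratio of 1.54 (0.80 to 2.31). In the selected cells, 10 cells held 47.7% of its UMIs. Its ratio came to 0.755 with cells chosen without Cdkn1c and 0.94 with compared cells of any keratin. It came to 0.88 with the rule applied, at 1 or more rule UMIs, after thinning to 1500 UMIs. Lrwd1, a partner of the origin recognition complex, had 40 and 24 UMIs (1.46, 0.70 to 2.26). S100a16, a calcium-binding protein, had 34 and 25 UMIs (1.17, 0.38 to 1.98). Brox, Timm23, 1600002K03Rik, Acaa1a, Traf7, Ints2, Eif4enif1, Memo1, Enoph1, Sc5d and Etfdh had log2 ratios from 1.31 to 1.02, with 32 to 67 UMIs in the selected cells. Acaa1a, a peroxisomal thiolase, Etfdh of the mitochondrial respiratory chain, Timm23 of mitochondrial protein import and Sc5d of sterol synthesis were among them. Of the 15 genes, Mdk alone stayed 2-fold higher under each of 15 other settings, and the other 14 came under 2-fold in 2 to 8 of them. With the rule applied after thinning to 1500 UMIs, again at 1 or more rule UMIs, Lrwd1 came to 0.36. With cells chosen without Cdkn1c Brox came to 0.11, 1600002K03Rik to 0.06 and Eif4enif1 to 0.33. Traf7 came to 0.09 with the rule read in other UMIs than the levels, and Memo1 to 0.23 with compared cells weighted to the selected cells' depth. Directions turned for some of the 15 genes. With cells chosen without Cdkn1c, Acaa1a came to -0.56, Etfdh to -0.56, Sc5d to -0.62 and S100a16 to -0.75, and with the rule applied after thinning Timm23 came to -0.255 and Enoph1 to -0.065. Cells chosen without Cdkn1c, on 2 or more UMIs of Crabp2 and Car14, numbered only 88, so few UMIs decide these ratios. Their 1145 compared cells could hold Cdkn1c UMIs. Across 0, 1, 2, 3 and 4 or more rule UMIs in cells without keratins, Mdk had 39.7, 104, 53.9, 111 and 143 CPM, with no steady order, and its interval at 2 rule UMIs overlapped that of the compared cells. Gpd2 had 16.3, 23.6, 36.0, 41.7 and 65.2 CPM over the same classes. Lmo1, a transcription cofactor whose log2 ratio was 0.83 (0.33 to 1.34), had 42.3, 42.5, 53.9, 92.7 and 90.1 CPM over these classes. Lmo1 was chosen after its values were seen.

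**Figure D2:**
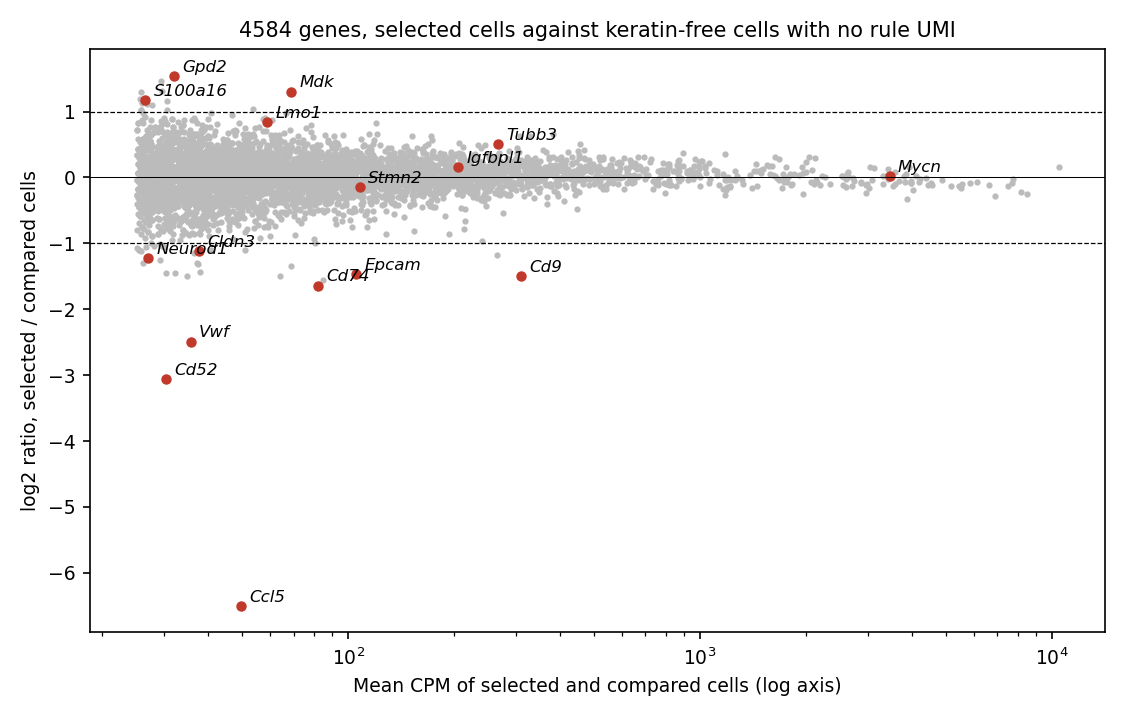
Each point is 1 of the 4584 genes, with the mean CPM of selected and compared cells on a log axis and the log2 ratio of their CPM, and dashed lines at 2-fold. Red points are genes named in the text, with Mdk at 1.30 above and Ccl5 at -6.50, Vwf at -2.49 and Cd9 at -1.50 below.

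Epithelial surface genes were lower in the selected cells. Both groups lacked keratin and Elf3 UMIs, but the compared cells did so at a lower depth, which is a weaker condition. Cd9 had 162 CPM (137 to 189.9) in the selected and 457 CPM (424 to 492) in the compared cells, a log2 ratio of -1.50 (-1.76 to -1.24). Epcam had 56.1 CPM (41.9 to 73.6) and 154 CPM (135 to 175), a log2 ratio of -1.46 (-1.92 to -1.02). Cldn3, a tight junction claudin, had 22 and 79 UMIs (-1.12, -1.87 to -0.42). Espn, an actin-bundling protein, had 19 and 85 UMIs (-1.43, -2.24 to -0.70). Vwf, von Willebrand factor of endothelium and platelets, had 10 UMIs in the selected and 93 in the compared cells (-2.49, -3.60 to -1.55), spread over 62 compared cells with at most 4 in 1 cell. It was higher in the keratin cells, at 333 CPM, with UMIs in 619 of the 1563. Of the 10 endothelial markers 4 had UMIs in the compared cells, summing to 110.1 CPM against 140.2 CPM of 3 genes in the selected cells. Egfl7 gave 78.2 CPM of the former sum, Pecam1 had UMIs in the compared cells and was at 0 in the selected cells, and Cdh5, Kdr, Cldn5, Emcn, Eng and Tie1 were at 0 in both. Of the 40 listed genes of epithelial adhesion and keratins, 6 were tested, 3 of which were at least 2-fold lower and 0 higher (0.698% and 0.327% over all genes tested), with a median log2 ratio of -0.88. When compared cells were weighted to the depth of the selected cells, Cd9 came to -0.82, Epcam to -1.06, Vwf to -1.39 and Espn to -0.68. Among cells of the 5 clusters that held most selected cells (below), Cd9 came to -0.60, Epcam to -0.39, Vwf to -0.69, Espn to -0.26 and Cldn3 to -0.07, so 0 of these 5 genes stayed 2-fold lower there.

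Immune genes were also lower in the selected cells, and they came from few compared cells. Ccl5, a T cell and natural killer cell chemokine, had 1 UMI in the selected and 150 in the compared cells, where 9 cells held them all and 1 cell held 93. Cd52, a lymphocyte surface glycoprotein, had 6 and 83 UMIs, and Cd74 and H2-Aa, of MHC class II presentation, 37 and 191, and 31 and 145. Cells with 3 or more UMIs of 10 immune genes numbered 19 of the 822 compared and 1 of the 293 selected cells. The 10 genes were Ccl5, Cd52, Ptprc, Nkg7, Cd3d, Cd3e, Cd3g, Cd74, H2-Aa and H2-Ab1, so leaving these cells out removed nearly all of their UMIs. Ccl5 then had 1 and 4 UMIs, Cd74 4 and 2 and H2-Aa 1 and 2, too few to give an order, and 23 genes were lower in place of 32. The 1 selected cell had 98 UMIs of the 10 genes, among them 33 of Cd74 and 30 of H2-Aa. The 11 lymphocyte genes summed to 126 CPM in the compared cells, led by Gzma, and the 14 macrophage genes to 159 CPM. H2-K1 of MHC class I had a log2 ratio of -1.44 (-2.32 to -0.65), which came to -0.39 without the immune cells, -0.46 within the 5 clusters and -0.50 at weighted depth. B2m had -0.47 (-0.74 to -0.20). Without the immune cells Mdk kept 1.25 and Crip1 went from -1.55 to -0.85. The further genes among the 15 lowest ratios were Crip1, Ccng2, Trim32, Snhg12 and Apool, with log2 ratios from -1.55 to -1.30. Each came under 2-fold in some settings. Crip1 came to -0.21 above 1000 genes, Ccng2 to -0.57 with the rule applied after thinning and Apool to -0.40 with cells chosen without Cdkn1c. Trim32 came to -0.79 at 1 or more rule UMIs and Snhg12 to -0.88 with compared cells of any keratin.

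Neuronal and neuroendocrine lists had median log2 ratios near that of all genes. Of 35 tested genes of the neuronal cytoskeleton and outgrowth, 0 were at least 2-fold higher or lower, with a median log2 ratio of 0.06, against 0.02 over all genes. Over all genes tested 0.327% were higher and 0.698% lower, so 0 of 35 does not set this list apart. Tubb3 and Tubb2a, tubulins of neurons, had log2 ratios of 0.51 (0.28 to 0.74) and 0.63 (0.23 to 1.03), Basp1, a growth cone protein, 0.65 (0.46 to 0.85), and Stmn4 -0.53 (-0.95 to -0.12). Of 11 tested neuroendocrine markers 0 passed 2-fold, with a median of -0.05, and at the same shares 0 of 11 does not set this list apart either. Mycn, an oncogenic transcription factor, had 3485 and 3438 CPM. Of 24 tested neuroendocrine and neural transcription factors, 0 were 2-fold higher and 2 lower, against 0.327% and 0.698% of all genes tested, with a median of -0.01. Neurod1, a factor of neuronal differentiation, had 15 and 58 UMIs (-1.22, -2.15 to -0.39), and Id1, an inhibitor of such factors, 30 and 107 UMIs (-1.11, -1.74 to -0.51). With compared cells of any keratin Neurod1 came to 0.12 and Id1 to -0.36. With the rule applied after thinning, at 1 or more rule UMIs, Id1 came to -0.05. Id2, Id3 and Id4 had -0.86, -0.58 and -0.88. In the Notch pathway, the target Hes5 had 112 and 196 CPM (-0.81, -1.14 to -0.48), which came to -0.21 with the rule applied after thinning, -0.19 with the rule read in other UMIs and 0.26 with compared cells of any keratin. The ligands Dll1 and Dll3 had 0.60 (-0.03 to 1.23) and 0.48 (0.12 to 0.84), with a median of 0.12 over 8 genes.

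Genes of the pathways of the 3 rule genes were read from fixed lists. Of 25 genes for retinoid handling and retinoid receptors, 3 outside the rule were tested, and 0 passed 2-fold. Over all genes tested 0.327% were higher and 0.698% lower, so 0 of 3 does not set this list apart. Fabp5, a fatty acid binding protein that can also carry retinoic acid, had 535 and 399 CPM, a log2 ratio of 0.42 (0.25 to 0.60). Rbp4, the plasma retinol carrier, had 0.00 (-0.26 to 0.26) and the receptor gene Rxrb 0.06 (-0.74 to 0.84). Aldh1a2, which makes retinoic acid, had 8 and 17 UMIs, and the receptor Rarb 4 and 2. Of the CDK inhibitors, Cdkn2a had a log2 ratio of -0.17 (-0.38 to 0.03), Cdkn2c 0.04 and Cdkn2d -0.11, and Cdkn1b, the close relative of Cdkn1c, had 22 and 28 UMIs (0.38, -0.50 to 1.24). Of the 15 other carbonic anhydrases 0 reached 25 CPM. Among imprinted genes, 11 were tested and 0 passed 2-fold, with a median of 0.11. At the shares over all genes given above, 0 of 11 does not set this list apart either. Kcnq1ot1, the antisense transcript of the imprinted domain of Cdkn1c, had 80 UMIs (86.3 CPM) and 165 UMIs (107 CPM), a log2 ratio of -0.32 (-0.72 to 0.08). Ndn, an imprinted growth suppressor, had 0.49 (0.25 to 0.73), and its neighbor Magel2, under the level for testing, 22 and 6 UMIs (2.60, 1.25 to 4.19). The RefSeq promoter of Car14 (GRCm38.p6, chr3:95904636-95904935, minus strand) held neither CAGCTG, an E-box, nor AGGTCA, a hexamer bound by nuclear receptors, on either strand. Of 32851 promoters of this length, 16.3% held each motif.

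Mitosis genes were present in both groups, with log2 ratios mostly just below 0. Of 37 tested mitosis genes 0 passed 2-fold, against 0.327% higher and 0.698% lower over all genes tested. Of the 37, 31 were below and 6 above 0, and their median log2 ratio was -0.12, against 0.02 over all genes. At 1000 UMIs, 47.2% (41.3 to 53.2) of the selected, 52.5% (48.7 to 56.3) of the compared and 36.7% (34.1 to 39.3) of the keratin cells had 5 or more UMIs of this list. Top2a, a topoisomerase of dividing cells, was found in 14.1% (10.3 to 18.7) of the selected and 19.4% (16.5 to 22.6) of the compared cells. For DNA replication the shares with 5 or more UMIs were 38.7%, 38.7% and 32.7%, and the median log2 ratio of 31 genes was 0.11. Cells below 1000 UMIs were left out, 9 selected, 138 compared and 183 keratin cells. Of 21 tested stress and immediate early genes, 0 were at least 2-fold higher and 1 lower, against 0.327% and 0.698% of all genes tested. Of the 21, 16 were below and 5 above 0, with a median of -0.29. Fos had 163 and 319 CPM (-0.97, -1.24 to -0.70), Jun 166 and 264 CPM (-0.67) and Klf2 20 and 82 UMIs (-1.31, -2.09 to -0.59), which came to -0.50 within the 5 clusters.

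More genes differed from the keratin cells, which the rule sets apart by their keratin and Elf3 UMIs. Of 4739 genes tested, 111 (2.34%) were at least 2-fold higher in the selected cells and 257 (5.42%) lower. Nr2f1, an orphan nuclear receptor of neural development, had 105 CPM (84.8 to 128) in the selected and 10.3 CPM (7.10 to 14.3) in the keratin cells, a log2 ratio of 3.35 (2.77 to 3.96). Mdk had a log2 ratio of 2.44 (1.95 to 2.93). Fst, the activin antagonist follistatin, had 244 CPM (213 to 278) and 52.5 CPM (45.0 to 60.9). Vtn, the matrix protein vitronectin, and Ptgds, prostaglandin D synthase, had log2 ratios of 2.36 and 2.25, and Fez1, a protein of axon growth, 2.11. Against the compared cells, Vtn had 0.04 (-0.17 to 0.26), Ptgds 0.09 (-0.21 to 0.39) and Fez1 -0.43 (-0.92 to 0.05). Nr2f1 had 0.64 (0.23 to 1.06) there. Spp1, osteopontin, had 737 and 132 CPM, but 30 of the selected cells held its 683 UMIs and 10 cells held 84.3% of them. Speer4d, at 3.42, belongs to a family of near-identical copies among which reads may be split, so its value is uncertain. Its 48 UMIs lay in 11 of the selected cells, and it was the top gene of cluster 10 (below), at 1233 CPM. Gpx2, Ap1m2 and 1700019D03Rik were at 0 UMIs in the selected cells and at 61.8, 67.6 and 52.5 CPM in the keratin cells. Cldn7, a claudin, had 1 UMI (1.08 CPM) against 216 CPM, and Cd9 a log2 ratio of -3.76 (-4.00 to -3.52). Of 9 tested adhesion genes 8 were at least 2-fold lower, with a median of -3.62. Of 32 tested neuronal genes 6 were higher and 0 lower, with a median of 0.33. The 16 neuroendocrine markers summed to 2301 CPM in the keratin cells, and 5 of 12 tested were at least 2-fold lower in the selected cells, Chga, a granule protein, by a log2 ratio of -1.70 (-2.21 to -1.23).

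**Figure D3:**
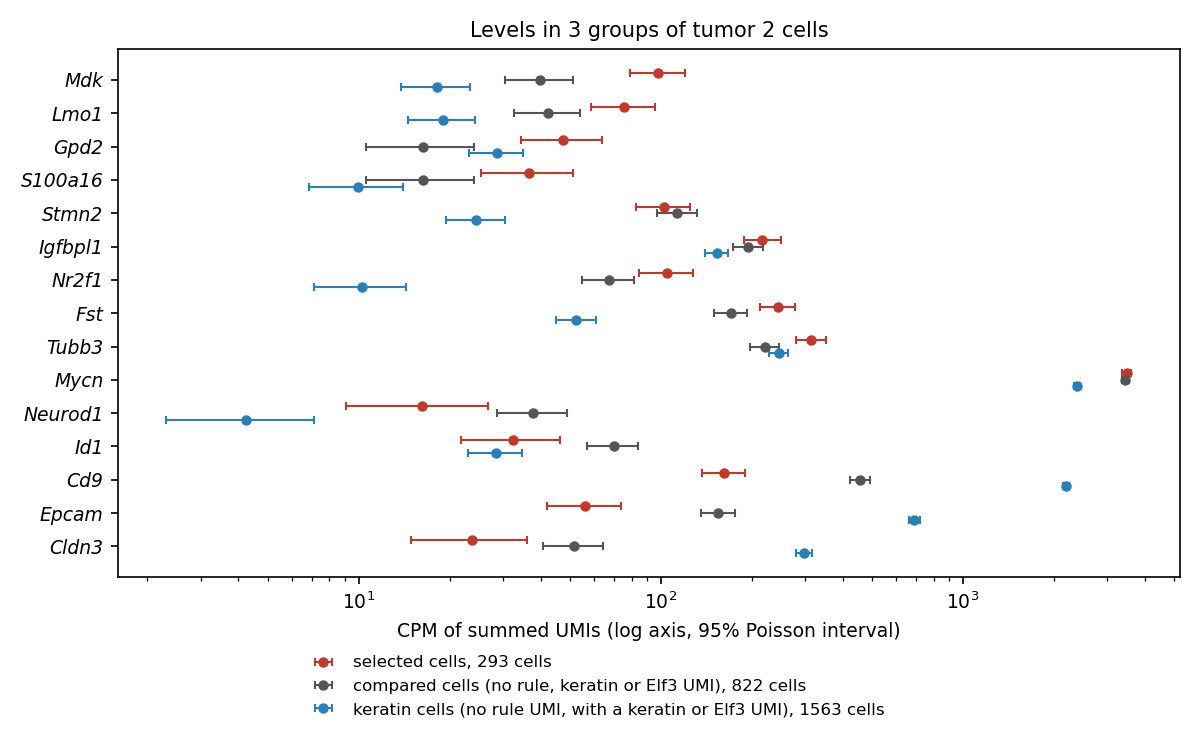
CPM of summed UMIs (log axis, exact Poisson 95% intervals) of 15 genes in the 293 selected cells, the 822 compared cells and the 1563 keratin cells of tumor 2. Mdk and Lmo1 are highest in the selected cells, Stmn2 and Mycn lie close together in selected and compared cells, and Cd9, Epcam and Cldn3 step up toward the keratin cells, Cd9 from 162 to 457 and 2186 CPM.

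Cells with 2 or more rule UMIs were also set against those with 0 whatever their keratins. This mixes both conditions, since 293 of the 459 cells with 2 or more rule UMIs lacked keratin and Elf3 UMIs, against 34.5% of the cells with 0. Of 4734 genes, 22 (0.465%) were at least 2-fold higher and 89 (1.88%) lower. Mdk had the highest log2 ratio, 1.75, followed by Nr2f1 at 1.53, Dpysl4, Fst at 1.28, D930028M14Rik and Lmo1, and Stmn2 reached 1.08. Split by both conditions, Mdk had 98.2 CPM with and 39.7 CPM without rule UMIs in cells lacking keratins, and 63.4 CPM (45.3 to 86.4) and 18.1 CPM (13.8 to 23.3) in cells holding them. These classes leave out cells with exactly 1 rule UMI. Stmn2 had 102 and 113 CPM in cells lacking keratins, and 124 CPM (97.8 to 154) and 24.4 CPM (19.4 to 30.4) in cells holding them. Fst had 244 and 170.0 CPM in the former, 178 CPM (146 to 214) and 52.5 CPM in the latter. Spp1 had 737 and 769 CPM in the former, 715 CPM (651 to 784) and 132 CPM in the latter. Over the 166 cells that held both 2 or more rule UMIs and keratin or Elf3 UMIs, the median depth was 3351.5 UMIs. Their summed levels of Stmn2 and Spp1 were close to those of the keratin-free cells. How the UMIs of Stmn2 and Spp1 were spread over these 166 cells was not read.

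The selected cells were also split by which of the 3 genes they held. Mdk had 152 CPM (113 to 200) in the 90 cells with Crabp2 and 88.4 CPM (60.8 to 124) in the 138 cells with Cdkn1c alone, with intervals that overlapped. Igfbpl1 had 271 CPM (220.4 to 329) with Cdkn1c alone and 181 CPM (147 to 219.6) in the 155 cells with Crabp2 or Car14. Stmn2 had 129 CPM (94.8 to 170.5) and 84.9 CPM (62.4 to 113) in the same 2 classes, with intervals that overlapped. Mycn had 2965 CPM (2793 to 3145) with Cdkn1c alone and 4093 CPM (3871 to 4324) in the 87 cells with Car14. Meg3, an imprinted noncoding RNA, had 21 UMIs in 4 cells, 15 of them in 1 cell.

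In a clustering of all tumor 2 cells made without the rule genes, the selected cells formed no cluster of their own. Of 11 clusters, 5 had more than 10% selected cells, and at most 21.3% (17.7 to 25.2) of any cluster was selected. These 5 clusters, numbered 2, 3, 4, 6 and 10, held 96.9% (94.2 to 98.6) of the selected, 80.9% (78.0 to 83.5) of the compared and 12.9% (11.2 to 14.6) of the keratin cells. Cluster 2 held 35.2% of the selected and 22.9% of the compared cells, and was led by Fgf21, Gamt, Mfap2, Cth and S100a16. Cluster 4 held 26.6% and 18.4%, and was led by Ccnb1, Plk1, Kif20a, Fgf21 and Ube2c, most of which act in mitosis. Cluster 3 held 17.1% and 23.5%, and was led by Pole, Fbln1, Lrr1, Aunip and Map2k6, with Pole a DNA polymerase. Cluster 6 held 14.7% and 12.8%, and was led by Spp1, Lect1, Meg3, Cpne8 and Cartpt. Cluster 10 held 3.41% of each group.

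The 5 clusters were picked by their share of cells selected on the rule genes, so the levels of these genes in them are a description and support nothing. Crabp2 had 33.1 to 90.9 CPM in the 5 clusters and 2.46 to 23.0 CPM in the other 6. Car14 had 46.4 to 66.3 CPM in the 5 and 1.79 to 13.1 CPM in the other 6, and Cdkn1c 196 to 412 CPM in the 5 and 61.3 to 102 CPM in the other 6. Mdk was read in selected and compared cells of the same cluster. It had 109 against 19.6 CPM in cluster 2 (log2 ratio 2.47, 1.16 to 4.04), 106 against 32.3 CPM in cluster 3 (1.72, 0.50 to 2.98), 31.5 against 17.2 CPM in cluster 4 (0.88, -0.67 to 2.50) and 213 against 138 CPM in cluster 6 (0.62, -0.14 to 1.40). It was above the compared cells in all 4, beyond counting error in clusters 2 and 3.

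**Figure D4:**
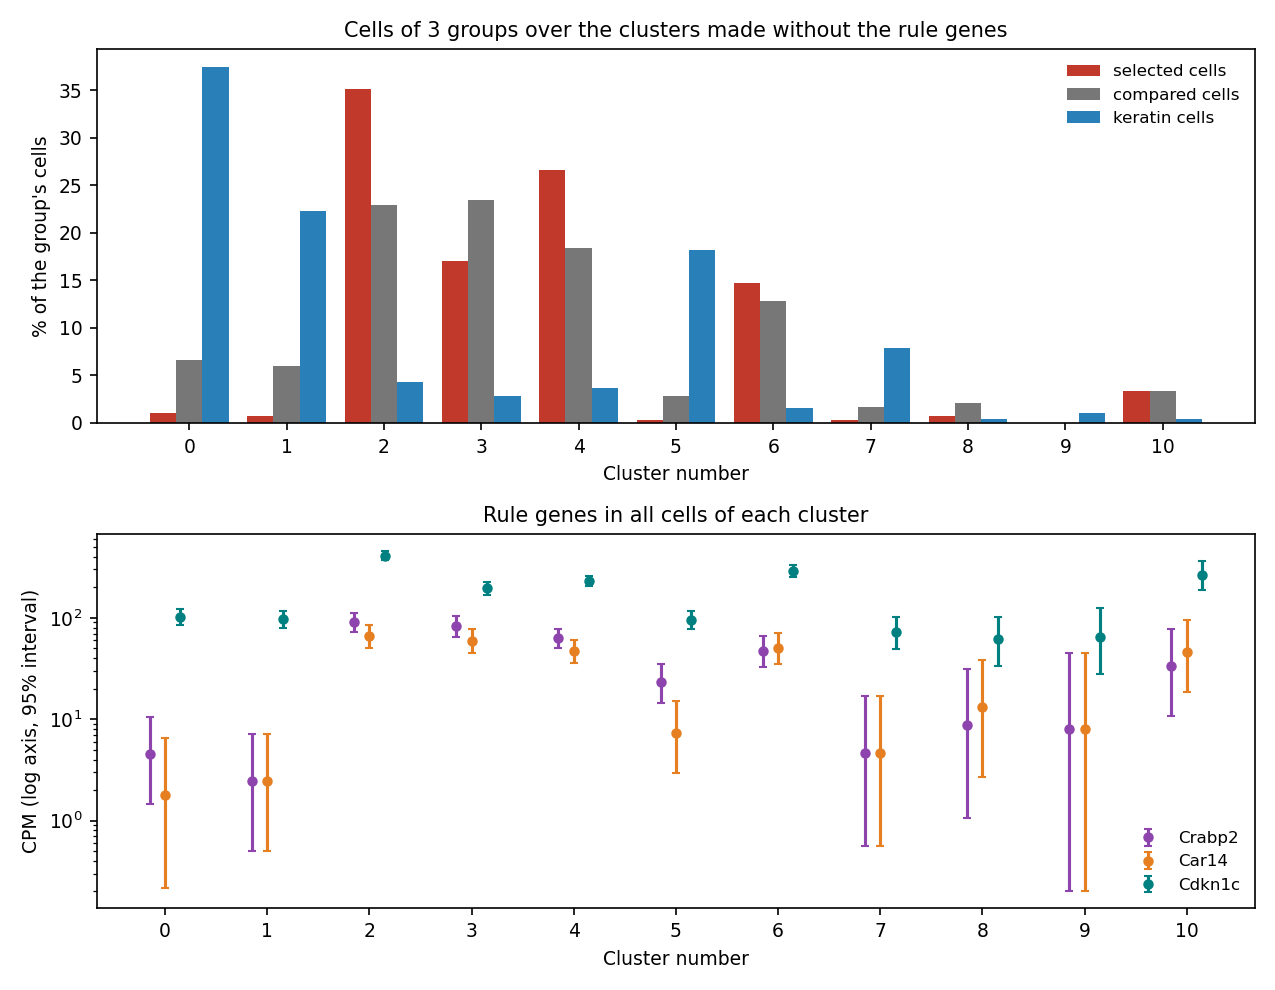
Top, the percentage of the selected, compared and keratin cells that lie in each of 11 clusters made without the rule genes. Bottom, CPM of Crabp2, Car14 and Cdkn1c (log axis, exact Poisson 95% intervals) in all cells of each cluster, shown as a description because the rule used these genes. Clusters 2, 3, 4, 6 and 10 hold 96.9% of the selected, 80.9% of the compared and 12.9% of the keratin cells.

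The rule found 0 cells in tumor 1. Of its 3193 cells with more than 500 genes, 284 passed the limits, most being lost on Calca, and 12 of these had 2 or more rule UMIs. Without the limit on Calca, 0 of 3005 cells met the rule, which allows a share of up to 0.123%, against 293 of 3466 (8.45%, 7.55 to 9.43) in tumor 2. Whatever their keratins, 186 (6.19%, 5.35 to 7.11) of these cells of tumor 1 and 461 (13.3%, 12.2 to 14.5) of those of tumor 2 had 2 or more rule UMIs, and 185 of the 186 had 2 or more Cdkn1c UMIs, so the 0 follows from the keratin condition. Cells without keratin and Elf3 UMIs numbered 17 (0.566%, 0.330 to 0.904) in tumor 1 and 1405 (40.5%, 38.9 to 42.2) in tumor 2. Over all 3005 cells of tumor 1 within these limits, Crabp2 had 2 UMIs (0.472 CPM, 0.0572 to 1.70) and Car14 had 0, which allows up to 0.708 CPM at 3 UMIs. Cdkn1c was close in both, at 202 CPM (189 to 216) in tumor 1 and at 188 CPM (179 to 198) over the 3466 cells of tumor 2. Mdk had 3.54 and 42.9 CPM, Igfbpl1 4.48 and 181 CPM, and Stmn2 0.472 and 66.9 CPM. Nr2f1 and Meg3 were at 0 UMIs in tumor 1. Tumor 1 was rich in Krt18, with 3259 CPM (3205 to 3314) against 198 CPM (188 to 208). Tumor, mouse and library cannot be told apart here.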

How the data were processed

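Live cells of a single tumor per TKO mouse, from 2 mice, were sequenced by the authors on the 10x Chromium platform. Deposited values are UMI counts, whole numbers for 27998 genes in each barcode. The submitters' processing notes name Cell Ranger, Seurat and mm10, and versions are not given in the sources used here. Summed UMIs of a group were scaled to CPM with exact Poisson intervals. Log2 ratios have exact conditional binomial intervals and shares exact Clopper-Pearson intervals, all at 95%. Python 3.11.15 was used, together with scipy 1.17.1, numpy 2.4.6, pandas 2.3.3 and matplotlib 3.10.9. For a gene at 0 UMIs in a group, the CPM that 3 UMIs give was taken as the level allowed, and no log2 ratio was given. Ratios were counted at 2-fold where the mean was 25 CPM or more. On simulated data for the main comparison (4536 genes), 98.3% of 177 genes planted at a log2 ratio of 1.5 either way passed 2-fold, as did 0.0918% of the others. Counts were drawn there for each group as a whole. Both shares therefore cover counting error only, and do not hold for genes whose UMIs gather in few cells. All tumor 2 cells with more than 500 genes were clustered in Seurat 5.3.0 (R 4.3.3) on 1000 variable genes and 10 components, at resolution 0.8. Thinning drew UMIs at random. Where the rule was applied after thinning to 1500 UMIs, it took 1 or more rule UMIs in place of 2 or more. Genes named are the rule genes, the proposed markers, the 15 most extreme ratios each way, listed genes and 5 top genes of each cluster with at least 10% of the selected cells. Lmo1, H2-Ab1 and the genes that lead the other comparisons were chosen after their values were seen. The cells and lists were chosen with earlier results of these data known. Doublets were kept, and leaving out the 5% of cells with the most UMIs was an alternative. A withheld item is not reported here.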

Additional observations from a re-analysis of the deposited data

Results flagged for a closer look

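The rule genes were also found in barcodes of tumor 2 outside the groups compared, 88 of which, over the macrophage limit, served above as a background level. In the 248 barcodes with 500 genes or fewer, Crabp2 had 32.2 CPM (11.8 to 70.2) and Car14 32.2 CPM, from 6 UMIs each, and Cdkn1c had 145 CPM (95.6 to 211), all above the 16.1 CPM that 3 UMIs give there. In the 152 cells over the Scgb1a1, macrophage or Calca limit, Cdkn1c had 59.3 CPM (33.9 to 96.3) from 16 UMIs, while Crabp2 and Car14 had 1 UMI each.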

How the results depend on the processing

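The 293 cells became 577 with at least 1 and 154 with at least 3 rule UMIs, and 459 with any keratin. The 15 higher and 32 lower genes became 39 and 162 with compared cells of any keratin, 57 and 80 with compared cells weighted to the selected cells' depth, 29 and 55 without ribosomal, mitochondrial and rule genes in the total, 31 and 59 for means of each cell's CPM, 43 and 69 at 3 or more rule UMIs, 6 and 20 at 1 or more, 30 and 50 without the 5% deepest cells, 68 and 93 with cells chosen without Cdkn1c, 106 and 178 at a mean of 10 CPM, and 0 and 3 at 100 CPM. The higher genes alone became 25 with the rule read, at 1 or more rule UMIs, in other UMIs than the levels. They became 30 above 1000 genes, and the lower genes became 20 within the 5 clusters. The rule applied after thinning to 1500 UMIs also took 1 or more rule UMIs, so that setting changed depth and threshold together. The 3 clusters with the most selected cells held 78.8% of them, 96.9% at resolution 0.4 and 73.4% at 1.2. Ratios of at least 2-fold changed sign for Timm23 (-0.255) and Enoph1 (-0.065) after thinning to 1500 UMIs; for S100a16 (-0.75), Acaa1a (-0.56), Sc5d (-0.62), Etfdh (-0.56), Cd74 (0.31) and H2-Aa (0.54) without Cdkn1c; for Cd74 (0.52) and H2-Aa (0.73) at weighted depth; for Cd74 (2.90) and H2-Aa (4.05) above 1000 genes; for Cd74 (1.71, from 4 and 2 UMIs) without immune cells; and for H2-Aa (0.01) and Neurod1 (0.12) with any keratin. Ratios under 2-fold changed sign 19 times, 8 times for Spp1 (-1.81 to 1.14), 6 for Mycn (-0.11 to 0.36), 2 for Stmn2 (-0.97 to 0.96) and 1 each for Igfbpl1 (-0.39), Hes5 (0.26) and Hes6 (-0.01). Beside the 15 changes of sign at 2-fold, 576 ratios of named genes stayed within their interval and 121 lay outside it. Mdk kept a log2 ratio of 1.12 or more under each setting run, while each of 18 named lower genes came under 2-fold in 1 to 7 of 10 to 15 settings. Removing immune cells, keeping to the 5 clusters and dropping the Calca limit were chosen after seeing the data. In the selected cells, 33 of 37 Cd74 and 30 of 31 H2-Aa UMIs lay in 1 cell. The cause of the other changes was not tested. No paired analysis was possible because the groups of cells compared are all from the library of tumor 2. Depth limits genes under 25 CPM, where few UMIs decide a ratio.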
